A study of Mus musculus with 8 samples.

Results

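The genes described here were 9 genes that respond to blood flow in endothelium, Klf2, Klf4, Klf6, Nos3, Thbd, Edn1, Cav1, Piezo1 and Pxn. They were taken by name from a count table of 24015 mouse genes. All 9 were present in the table once, and all 9 were among the 13908 genes that passed the filter on low counts. RNA was measured by Smart-seq2 in 8 samples of 100 sorted cells each, from the aorta-gonad-mesonephros region dissected with the vitelline and umbilical arteries (AGM+VU) of E11.5 mouse embryos. Endothelium was sorted as VE-Cadherin+ cells without Ter119, c-Kit, CD41 or CD45, and hematopoietic clusters, the groups of blood cells budding from the arterial wall, as Ter119- cells carrying both VE-Cadherin and c-Kit. Each cell type came from embryos of 2 genotypes, wild type and Sl/Sl. The latter are homozygous for a Steel deletion that takes in Kitl, the ligand of the Kit receptor, so that every cell of the embryo lacked Kitl along with any other sequence inside the deletion. There were 4 groups of 2 samples. Each sample was sorted from pooled embryos of 1 genotype, 1–4 to a pool, over 2 sorting experiments in all, and the labels do not say which sample came from which experiment.

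Blood that moves along a vessel wall drags on the endothelial cells, and this shear stress is sensed at the membrane by ion channels such as Piezo1, by junctional proteins, by caveolae and by focal adhesions. Sustained laminar flow switches on the transcription factors Klf2 and Klf4 through a kinase relay that ends on MEF2 factors, and these raise Nos3 and Thbd, which keep the vessel dilated and free of clots, and repress Edn1, a constrictor. In the embryo, flow through the dorsal aorta and nitric oxide are known to favour the emergence of hematopoietic stem cells from the arterial wall.

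The 9 genes were spread over 6 chromosomes (mm9 coordinates, as in the table). Klf2 lies on chromosome 8 from 74842961 to 74845553, Klf4 on chromosome 4 from 55540009 to 55545347, and Klf6 on chromosome 13 from 5860735 to 5869639. Nos3 spans 23870637 to 23890292 on chromosome 5 and Pxn spans 115956685 to 116005996 on the same chromosome. Thbd, a gene of 1 exon, lies on chromosome 2 from 148230207 to 148233924, Edn1 on chromosome 13 from 42396639 to 42403358, Cav1 on chromosome 6 from 17256335 to 17291328 and Piezo1 on chromosome 8 from 125005598 to 125075229. Counts were taken over whole exons. Nos3 shared 294 exon bases with Atg9b on the opposite strand and Piezo1 shared 990 with Ctu2 on the opposite strand. The strand setting of the counting is not given in the sources used here, so reads of these stretches cannot be told apart.

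The 3 KLF genes are shown with the 250 bases before their start sites, because they differed in whether they separated the cell types. The sequences are from RefSeq on GRCm38.p6 and run 5′ to 3′ on the strand of the gene. Capitals mark the MEF2 consensus (CTA, any 4 A or T bases, TAG) and CCGCCC, the GC box bound by Sp and KLF proteins, on either strand.
Klf2, chr8:72318812-72319061, plus strand: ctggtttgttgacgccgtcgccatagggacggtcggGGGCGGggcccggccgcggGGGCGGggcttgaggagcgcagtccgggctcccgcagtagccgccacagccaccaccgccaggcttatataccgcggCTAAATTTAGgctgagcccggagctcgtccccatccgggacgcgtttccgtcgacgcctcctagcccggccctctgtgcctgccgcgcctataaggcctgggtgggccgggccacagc
Klf4, chr4:55532476-55532725, minus strand: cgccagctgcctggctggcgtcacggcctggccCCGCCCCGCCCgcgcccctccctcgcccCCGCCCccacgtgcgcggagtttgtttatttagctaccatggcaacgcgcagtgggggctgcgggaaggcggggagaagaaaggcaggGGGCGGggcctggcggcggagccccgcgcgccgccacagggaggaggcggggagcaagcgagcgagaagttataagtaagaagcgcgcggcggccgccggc
Klf6, chr13:5861239-5861488, plus strand: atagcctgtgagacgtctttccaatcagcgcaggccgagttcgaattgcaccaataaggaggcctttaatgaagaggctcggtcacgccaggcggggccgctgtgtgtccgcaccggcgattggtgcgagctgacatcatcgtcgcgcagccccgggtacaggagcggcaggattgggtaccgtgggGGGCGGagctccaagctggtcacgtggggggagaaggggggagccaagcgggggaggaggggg
The MEF2 consensus was matched once, as CTAAATTTAG in Klf2 from 118 to 109 bases before the start, and in neither Klf4 nor Klf6. Over the RefSeq promoters, which hold 250 bases before and 50 after the start, 183 of 32851 promoters held it, or 0.557%. The GC box was matched at 2 places in Klf2, 4 in Klf4, of which 2 overlapped by 1 base, and 1 in Klf6, and 35.7% of all promoters held at least 1. Of the 9 genes, 6 had a promoter in the RefSeq table, and none of the 6 held the CArG box of serum response factor by its consensus (1.63% of all promoters) or TGANTCA, the AP-1 site (7.81%). The KLF site CACCC, held by 57.5% of all promoters, was found in Klf2, Edn1, Cav1 and Piezo1, and TATAAA (13.6%) in Cav1 and Piezo1. Both strands were searched, and the matches describe the letters of these windows alone.

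Counts on genes summed to between 8933236 and 13428214 per library, and 12844–14309 genes were detected in each. The markers of the sort were checked first. Cdh5, which encodes VE-Cadherin, had 4480–8240 counts in endothelium and 154–2531 in clusters. Ptprc, which encodes CD45, had 6–16 counts in endothelium and 1294–3908 in clusters. Kit was lower in endothelium but not absent from it, with 538–1065 counts against 2937–4392 in clusters, although endothelium was sorted as c-Kit-. Endothelium of wild type embryos held 1250 and 923 counts of Kitl, and that of Sl/Sl embryos 6 and 2, as the genotype labels state. The cluster libraries, themselves sorted for VE-Cadherin, held unequal levels of endothelial marker genes. The summed level of 12 endothelial markers, all of them above 3 counts in every library, was 6083–6906 counts scaled to the library total (CPM, on TMM-scaled totals) in endothelium, and in clusters it was 1234 and 438.7 CPM for wild type replicates 1 and 2 and 2831 and 770.4 CPM in Sl/Sl replicates 1 and 2. Of these markers, Cdh5 was ordered otherwise, with 218.4 CPM in wild type clusters replicate 1 and 149.2 CPM in Sl/Sl clusters replicate 1. Mesenchymal and smooth muscle markers summed to 5271 CPM in Sl/Sl clusters replicate 2 and to 409.3–1858 CPM in the other libraries. All 12 had more than 3 counts in Sl/Sl clusters replicate 2. Macrophage markers, 11 of 12 of them in the table, summed to 285.4–884.6 CPM in clusters and 7.09–35.1 CPM in endothelium. C1qa was at 0 in 1 cluster library and in 3 endothelium libraries. Hematopoietic markers summed to 1271–1862 CPM in clusters and 128.3–169.2 CPM in endothelium, with none of the 12 at 0. Erythroid markers (11 of 12 in the table) reached 260 CPM at most and epithelial markers 225 CPM at most, and Hba-a1, Hba-a2, Hbb-b1, Hbb-b2 and Slc4a1 were at 0 in every library. In samples of bulk RNA, fewer cells of a type and less RNA per cell cannot be told apart.

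The first comparison asked which flow-responsive genes distinguish the endothelium that lines the vessel from the clusters that bud from it. In endothelium, 6 of the 9 genes were higher than in clusters over both genotypes, and none was lower. These were the transcription factors Klf2 and Klf4, the nitric oxide synthase Nos3, the anticoagulant receptor Thbd, the vasoconstrictor Edn1 and the caveolar coat protein Cav1, with fold differences from 3.02 (Thbd) to 23.3 (Cav1). Klf6, Piezo1 and Pxn did not pass the threshold, an adjusted p-value under 0.1 by the quasi-likelihood test of edgeR. Of all genes tested, 8.48% were called higher in endothelium and 8.12% lower. The median log2 fold change of the 9 genes was 1.92, against −0.07 over all genes tested. In the same 6 genes all 4 endothelium libraries lay above all 4 cluster libraries, which held for 10.1% of all genes tested.

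**Figure D1:**
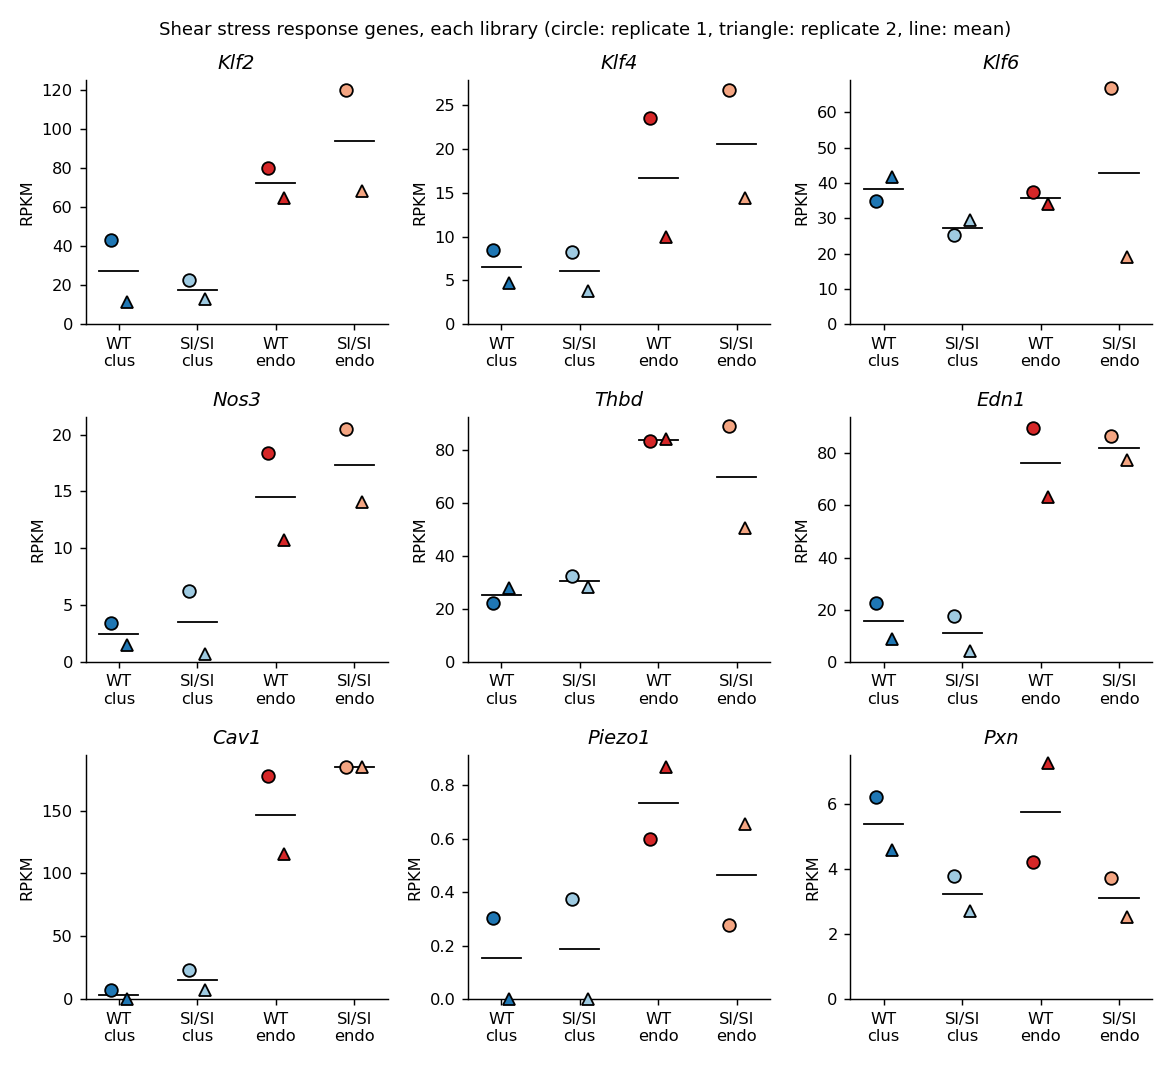
Each panel plots the RPKM (linear axis from 0) of 1 gene in the 8 libraries, with the clusters (wild type, then Sl/Sl) on the left and the endothelium in the same order on the right, with circles for replicate 1, triangles for replicate 2 and a line at the mean. The 4 endothelium libraries lie above the 4 cluster libraries in Klf2, Klf4, Nos3, Thbd, Edn1 and Cav1, while the points of Klf6, Piezo1 and Pxn overlap.

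Among the transcription factors, Klf2, the factor most directly tied to laminar flow in endothelium, had 79.9 and 64.8 RPKM (reads per kilobase of exon, scaled to the library total) in endothelium of wild type embryos and 119.8 and 68.1 RPKM in that of Sl/Sl embryos (replicates 1 and 2). In clusters it had 43.0 and 11.3 RPKM in wild type and 22.4 and 12.9 RPKM in Sl/Sl. The groups did not overlap, and the cluster library nearest to endothelium was wild type replicate 1. The means were 83.1 ± 25.3 (SD, n = 4) in endothelium and 22.4 ± 14.6 (SD, n = 4) in clusters, and the log2 fold change was 2.04 ± 0.43 (SE, edgeR, adjusted p = 0.0167).

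Klf4, a close relative of Klf2 with overlapping targets, had a lower RPKM than Klf2 in every library. It had 23.4 and 9.95 RPKM in endothelium of wild type embryos, 26.7 and 14.4 RPKM in that of Sl/Sl embryos, 8.43 and 4.66 RPKM in clusters of wild type and 8.28 and 3.82 RPKM in those of Sl/Sl. The lowest endothelium library, wild type replicate 2, stood just above the highest cluster library, wild type replicate 1. The log2 fold change of 1.68 ± 0.48 (SE, edgeR, adjusted p = 0.0537) was the weakest of the 6 calls. It did not pass without wild type clusters replicate 2, Sl/Sl clusters replicate 2, wild type endothelium replicate 1 or Sl/Sl endothelium replicate 1 (log2 fold changes of 1.48, 1.44, 1.33 and 1.41, adjusted p = 0.142, 0.146, 0.160 and 0.152).

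Klf6, a broadly expressed factor induced by injury, was abundant in both cell types. It had 37.5 and 34.0 RPKM in endothelium of wild type embryos, 66.9 and 19.1 RPKM in that of Sl/Sl embryos, 35.0 and 41.6 RPKM in clusters of wild type and 25.2 and 29.6 RPKM in those of Sl/Sl. The 2 Sl/Sl endothelium libraries held both the highest and the lowest value of the 8. The log2 fold change of Klf6 was 0.40 ± 0.34 (SE, edgeR, adjusted p = 0.513). It was −0.20 (adjusted p = 0.727) without Sl/Sl endothelium replicate 1 and 0.71, just past the threshold (adjusted p = 0.0976), without Sl/Sl endothelium replicate 2.

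Among the genes that act on the vessel, Nos3, the endothelial nitric oxide synthase, had 18.4 and 10.7 RPKM in endothelium of wild type embryos and 20.5 and 14.1 RPKM in that of Sl/Sl embryos. Its cluster values were 3.38 and 1.53 RPKM in wild type and 6.25 and 0.704 RPKM in Sl/Sl. Every endothelium library exceeded every cluster library, and the cluster value moved over a wide range. The log2 fold change was 2.56 ± 0.65 (SE, edgeR, adjusted p = 0.0380), and it was 4.06 (adjusted p = 0.00106) when both cluster libraries numbered 1, those with most endothelial marker RNA, were left out, a choice made after seeing the data.

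Thbd encodes thrombomodulin, which turns thrombin from a clotting enzyme into an activator of protein C. It had 83.5 and 84.3 RPKM in endothelium of wild type embryos and 89.2 and 50.6 RPKM in that of Sl/Sl embryos, against 22.2 and 28.0 RPKM in wild type clusters and 32.7 and 28.2 RPKM in Sl/Sl clusters. The 4 cluster libraries were close to each other. With 76.9 ± 17.7 RPKM in endothelium and 27.8 ± 4.27 RPKM in clusters (SD, n = 4 each), its log2 fold change of 1.59 ± 0.23 (SE, edgeR, adjusted p = 0.00325) was the smallest of the 6 called and had the smallest error.

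Edn1, the precursor of the vasoconstrictor endothelin-1, had 89.5 and 63.2 RPKM in endothelium of wild type embryos and 86.4 and 77.5 RPKM in that of Sl/Sl embryos. In clusters it had 22.6 and 8.70 RPKM in wild type and 17.6 and 4.29 RPKM in Sl/Sl. In both genotypes the cluster library numbered 1 held the larger value. The log2 fold change of Edn1 was 2.72 ± 0.47 (SE, edgeR, adjusted p = 0.00791).

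Of the genes that sense or transmit force, Cav1, the main coat protein of caveolae, was the most abundant of the 9 in endothelium and the one that separated the cell types most. It had 177.4 and 115.8 RPKM in endothelium of wild type embryos and 184.2 and 185.0 RPKM in that of Sl/Sl embryos. In wild type clusters it had 7.56 and 0.144 RPKM, the latter from 5 counts, and in Sl/Sl clusters 23.7 and 7.64 RPKM. The log2 fold change was 4.54 ± 0.86 (SE, edgeR, adjusted p = 0.0114), and with each library left out in turn it ran from 4.02 (adjusted p = 0.000333, without wild type clusters replicate 2) to 6.85 (adjusted p = 2.88e-05, without wild type clusters replicate 1).

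Piezo1 encodes a stretch-activated cation channel and lay near the limit of detection. Its counts were 63 and 75 in endothelium of wild type embryos and 27 and 48 in that of Sl/Sl embryos. They were 27 and 0 in clusters of wild type and 37 and 0 in those of Sl/Sl. A count of 0 would allow up to 3 if counts were independent molecules, which they are not in Smart-seq2. The 2 cell types overlapped, and the log2 fold change of 1.92 ± 1.84 (SE, edgeR, adjusted p = 0.567) was about as large as its error. With 1 library left out in turn it ran from 1.39 to 5.49 and never passed the threshold.

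Pxn encodes paxillin, an adaptor of focal adhesions. It had 4.22 and 7.28 RPKM in endothelium of wild type embryos and 3.73 and 2.53 RPKM in that of Sl/Sl embryos, against 6.23 and 4.58 RPKM in wild type clusters and 3.79 and 2.72 RPKM in Sl/Sl clusters. Its mean was 4.44 ± 2.02 RPKM in endothelium and 4.33 ± 1.48 RPKM in clusters (SD, n = 4 each), and the log2 fold change was 0.15 ± 0.55 (SE, edgeR, adjusted p = 0.909).

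Within wild type, 3 of the 9 genes were called, all higher in endothelium, against 4.56% of all genes called higher. These were Thbd (log2 fold change of 1.86 ± 0.33 SE, adjusted p = 0.0164), Cav1 (5.41 ± 1.27, adjusted p = 0.0462) and Edn1 (2.43 ± 0.66, adjusted p = 0.0773). Cav1 ran from 4.402 without wild type clusters replicate 2 to 10.04 without wild type clusters replicate 1, and its call was lost from only the 4 samples compared (5.40, adjusted p = 0.104). The call of Edn1 did not hold without wild type clusters replicate 2 (1.88, adjusted p = 0.254) or wild type endothelium replicate 1 (2.19, adjusted p = 0.170). Within Sl/Sl, 3 were called, all higher in endothelium, against 0.985% of all genes called higher. These were Edn1 (3.02 ± 0.68, adjusted p = 0.0740), Klf2 (2.53 ± 0.61, adjusted p = 0.0928) and Thbd (1.32 ± 0.32, adjusted p = 0.0953). None of the 3 calls remained without Sl/Sl clusters replicate 2 or without Sl/Sl endothelium replicate 1. The call of Thbd was also lost without Sl/Sl clusters replicate 1 (1.471) and without wild type endothelium replicate 1 (1.325) or 2 (1.312). The values of the genes called in 1 genotype alone were similar in sign in the other: Klf2 had 1.56 ± 0.59 in wild type (adjusted p = 0.189) and Cav1 had 3.67 ± 1.16 in Sl/Sl (adjusted p = 0.191). Leaving out 1 library also turned these into calls. Klf2 in wild type was 2.76 (adjusted p = 0.0224) without wild type clusters replicate 1 and 0.88 (adjusted p = 0.524) without wild type clusters replicate 2. Cav1 in Sl/Sl was 3.67 (adjusted p = 0.00269) and 3.64 (adjusted p = 0.00310) without wild type clusters replicates 1 and 2, which entered only the shared estimate of the spread. The difference between the genotypes is tested as the interaction, after the genotype comparisons. The comparisons within a genotype use the libraries of the comparison over both, so they are no separate evidence.

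**Figure D2:**
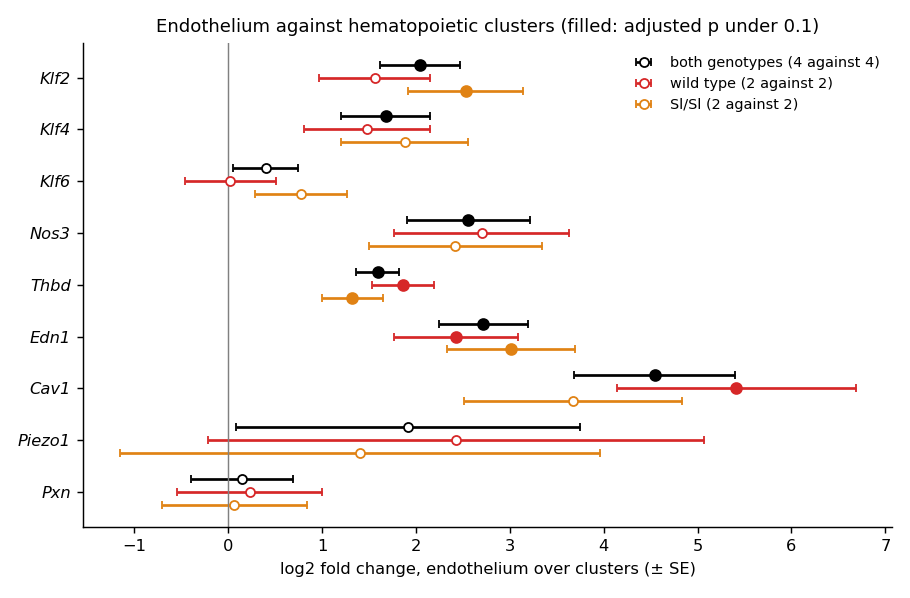
Points are log2 fold changes of endothelium over clusters from edgeR with bars of ± 1 SE, over both genotypes (black, 4 libraries against 4), within wild type (red) and within Sl/Sl (orange, 2 against 2), and filled points have an adjusted p under 0.1. Over both genotypes 6 genes are filled, from Thbd at 1.59 to Cav1 at 4.54, and Thbd and Edn1 are filled in all 3 comparisons.

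The levels of the 9 genes in clusters were set beside the endothelial markers in the same libraries. As a percent of the mean CPM in endothelium, the 12 endothelial markers summed to 19.1% and 6.79% in wild type clusters replicates 1 and 2 and 43.8% and 11.9% in Sl/Sl clusters replicates 1 and 2. Nos3 had 18.9%, 8.97%, 37.0% and 3.98% in the same libraries, highest and second highest where the markers were. In the replicates numbered 2 the order was reversed, with Nos3 higher in wild type and the markers higher in Sl/Sl. Cav1 was below the markers in every cluster library, at 4.05%, 0.0812%, 13.5% and 4.14%. Edn1, at 25.4%, 10.3%, 21.0% and 4.87%, was above the markers in both wild type libraries and below them in both Sl/Sl libraries. Thbd varied less, at 25.7%, 34.1%, 39.98% and 33.0%, and in both replicates numbered 2 it was far above the markers. Klf2 (45.9%, 12.7%, 25.4% and 13.9%) and Klf4 (40.3%, 23.5%, 42.0% and 18.5%) were above the markers in 3 of the 4 libraries, the exception being Sl/Sl clusters replicate 1. Klf6 kept 60.2–99.0% and Pxn 54.9–124.3% of their endothelial level. The part of endothelial RNA in the cluster levels was not tested. Without the 2 cluster libraries numbered 1, the same 6 genes were called over both genotypes, with log2 fold changes from 1.57 (Thbd) to 7.40 (Cav1).

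**Figure D3:**
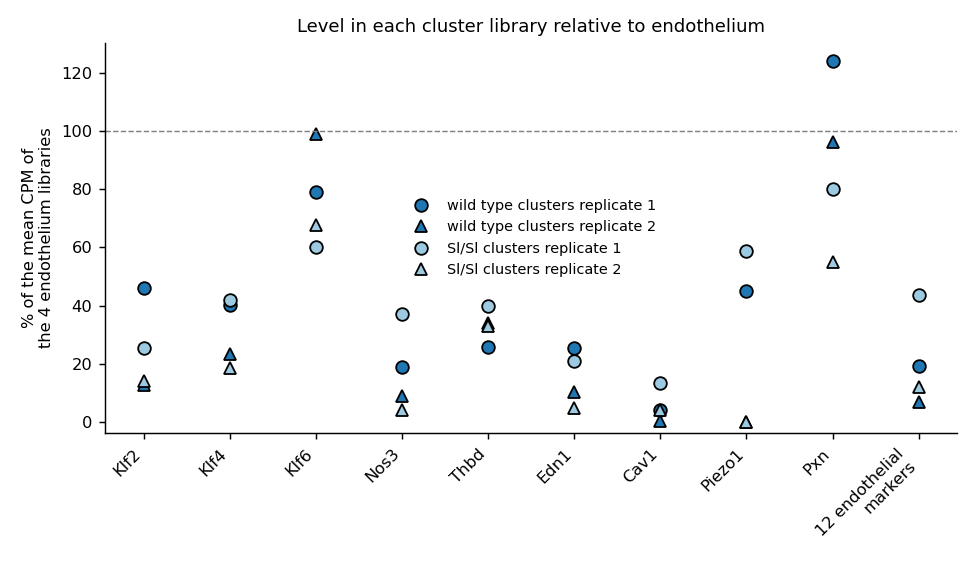
Each point is the level of a gene in 1 cluster library as a percent of its mean CPM in the 4 endothelium libraries (linear axis, dashed line at 100%), with the sum of 12 endothelial markers in the last column. Cav1 stays at or under 13.5%, Thbd lies between 25.7% and 39.98%, and Klf6 and Pxn reach 99.0% and 124.3%.

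In endothelium, the order of mean RPKM was Cav1 (165.6), Klf2 (83.1), Edn1 (79.2), Thbd (76.9), Klf6 (39.4), Klf4 (18.6), Nos3 (15.9), Pxn (4.44) and Piezo1 (0.599). The ranges of neighbours in this order overlapped over the 4 libraries, those of Cav1 and Klf2 narrowly, except between Nos3 and Pxn and between Pxn and Piezo1. Among all genes of the table, Cav1 stood at the 96.5th percentile of endothelial RPKM, Klf2 at the 93.9th, Nos3 at the 81.7th and Piezo1 at the 49.6th. In clusters the order was Klf6 (32.8), Thbd (27.8), Klf2 (22.4), Edn1 (13.3), Cav1 (9.77), Klf4 (6.30), Pxn (4.33), Nos3 (2.97) and Piezo1 (0.170), and only Nos3 and Piezo1 were neighbours whose ranges did not overlap. Within the genotypes, Cav1 had rank 1 in endothelium of both, rank 7 in clusters of wild type and rank 4 in clusters of Sl/Sl.

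Loss of Kitl was then compared in each cell type. In endothelium, 0 of the 9 genes were called by edgeR between Sl/Sl and wild type, and 0 had an unadjusted p under 0.05. Over all genes edgeR called 0.0%, and 4.17% had an unadjusted p under 0.05, while DESeq2 called 1.35% of the genes it tested and 0 of the 9. Even Kitl was thus not called by edgeR. Its endothelial RPKM (replicates 1 and 2) fell from 17.9 and 16.1 without the deletion to 0.0925 and 0.0411 in Sl/Sl. The 0 of 9 by edgeR therefore does not show that the 9 genes were unchanged. The log2 fold changes of the 9 genes ran from −0.87 ± 0.78 (SE, Pxn, unadjusted p = 0.292) to 0.39 ± 0.58 (SE, Klf2, unadjusted p = 0.513), 6 of them above 0 and 3 below. Thbd, the most precisely measured, was at −0.25 ± 0.32 (SE). The 2 libraries of each genotype did not overlap for Cav1, which was 177.4 and 115.8 RPKM in wild type and 184.2 and 185.0 RPKM in Sl/Sl, and for Pxn, which was lower in Sl/Sl. Such separation in either direction was found, in CPM, in 28.5% of all genes tested, so 2 of 9 was near the background.

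In clusters, 0 of the 9 genes were called by edgeR, with 0 at an unadjusted p under 0.05. Over all genes edgeR called 0.0%, with 4.22% at an unadjusted p under 0.05, and DESeq2 called 1.36% of the genes it tested and 0 of the 9. As edgeR called no gene at all, its 0 of 9 does not show a lack of change here either. The log2 fold changes ran from −0.71 ± 0.78 (SE, Pxn) to 2.10 ± 1.11 (SE, Cav1, unadjusted p = 0.0906, adjusted p = 1). In CPM, the 2 libraries of each genotype did not overlap for Klf6, Cav1 and Pxn, Cav1 being higher and the other two lower in Sl/Sl. That is 3 of 9, against 32.7% of all genes on the same scale. In RPKM, which uses plain totals, Thbd did not overlap either (22.2 and 28.0 in wild type, 32.7 and 28.2 in Sl/Sl). The value of Cav1 turned on single libraries. The log2 fold change without wild type clusters replicate 1 was 6.72 (adjusted p = 0.0132), which left replicate 2 with its 5 counts as the only wild type library. It was 1.11 (adjusted p = 0.982) without wild type clusters replicate 2 and 1.01 (adjusted p = 1) without Sl/Sl clusters replicate 1. The endothelial markers summed to 2831 and 770.4 CPM in the Sl/Sl cluster libraries against 1234 and 438.7 CPM in wild type, and their part in the Cav1 values was not tested. With DESeq2 at the same threshold, the study reported endothelial-associated genes as raised and hematopoietic genes as lowered in Sl/Sl clusters. It reported few changes in endothelium. DESeq2 as run here called 178 genes in endothelium and 175 in clusters, so endothelium did not have fewer here. The reason was not tested.

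Whether the genotype effect differed between the cell types was tested directly. In the test of the interaction, edgeR called 0 of the 9 genes and 0.0% of all genes, and 5.29% of all genes and 0 of the 9 had an unadjusted p under 0.05. DESeq2 called 1.30% of the genes it tested and 0 of the 9. With no gene called by edgeR, its 0 of 9 does not show that the genotype effects were equal. The interaction of Cav1 was −1.74 ± 1.51 (SE, log2, adjusted p = 0.980), and with 1 library left out it ran from −6.37 (adjusted p = 0.0466, without wild type clusters replicate 1) to −0.66 (adjusted p = 1, without Sl/Sl clusters replicate 1).

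**Figure D4:**
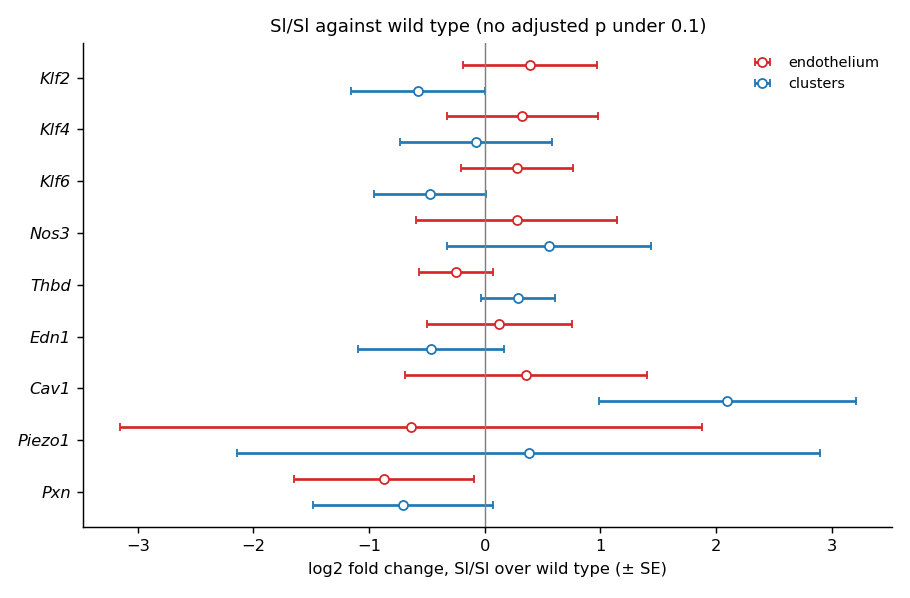
Points are log2 fold changes of Sl/Sl over wild type from edgeR with bars of ± 1 SE, in endothelium (red) and in clusters (blue), 2 libraries against 2. The endothelium values lie between −0.87 and 0.39, the largest cluster value is Cav1 at 2.10, and no point has an adjusted p under 0.1.

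The other genes of the pathways around the 9 were counted from 9 lists, which held 139 further genes of the table, 128 of them tested. Over both genotypes, 60 of the 128 were called, 53 higher and 7 lower in endothelium, with a median log2 fold change of 1.07, against −0.07 over all genes, of which 16.6% were called. Within wild type 38 were called, 34 of them higher, against 8.24% of all genes, and within Sl/Sl 12, of which 11 were higher, against 2.83% of all genes.

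Among the sensors at the membrane, 13 of the 19 tested beside Piezo1 were higher in endothelium and 0 were lower. Over all genes, 8.48% were called higher and 8.12% lower, and these shares apply to each list below. Pecam1, Kdr and Cdh5, which were among the 13, also belonged to the 12 endothelial markers. The sphingosine-1-phosphate receptor S1pr1 had 158.0 ± 12.5 RPKM in endothelium and 29.2 ± 11.8 in clusters (SD, n = 4 each; log2 fold change 2.60 ± 0.24 SE, adjusted p = 0.000360). The integrin chain Itgb1 (1.30 ± 0.19, adjusted p = 0.00379) and the junctional protein Pecam1 (1.99 ± 0.30, adjusted p = 0.00386) followed. Piezo2, the other Piezo channel, was also among those higher.

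The relay from the membrane to Klf2 moved in both directions. Of 15 genes of the MEK5, ERK5, MEF2 and cerebral cavernous malformation group, 4 were higher and 2 lower. Over all genes the shares were 8.48% and 8.12%. Mef2c, one of the factors that bind the MEF2 consensus shown for Klf2, was lower in endothelium (16.0 ± 1.60 against 40.02 ± 8.68 RPKM, SD, n = 4 each; log2 fold change −1.17 ± 0.18 SE, adjusted p = 0.00464), while its relative Mef2a was higher (1.21 ± 0.29, adjusted p = 0.0292). Rasip1, a junctional adaptor of endothelium, was higher (2.00 ± 0.46, adjusted p = 0.0248). The other 3 called were Heg1 and Hdac7, which were higher, and Ccm2, which was lower.

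In the KLF family, 0 of the 12 other tested members were called by edgeR, with 3 at an unadjusted p under 0.05. The nearest were Klf13 (log2 fold change of 0.68 ± 0.25 SE, adjusted p = 0.128), Klf16 (−2.02 ± 0.77, adjusted p = 0.136) and Klf7 (2.00 ± 0.79, adjusted p = 0.146). Klf2 and Klf4 were thus the 2 of the 15 tested members that passed. Over all genes, edgeR called 16.6%, and 3695 of 13908 had an unadjusted p under 0.05. The edgeR counts of the family were therefore near the background. DESeq2 called 5 of 17 of the family, against 15% of all genes.

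Beside Nos3, the nitric oxide pathway had 2 genes higher and 2 lower of 14 tested, against 8.48% and 8.12% of all genes. Ddah1 and Ddah2 break down the natural inhibitor of the synthase, and both were higher, Ddah1 by 3.29 ± 0.47 (log2, SE, adjusted p = 0.00318) and Ddah2 by 1.58 ± 0.28 (adjusted p = 0.00791). The chaperone Hsp90aa1, which binds the synthase, was lower (−0.93 ± 0.14, adjusted p = 0.00369), as was Pts, an enzyme of the synthesis of its cofactor tetrahydrobiopterin.

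Beside Edn1, 2 of 5 endothelin genes were higher and 0 lower. The receptor Ednrb had 63.8 ± 7.29 RPKM in endothelium and 7.89 ± 6.997 in clusters (SD, n = 4 each; log2 fold change 3.32 ± 0.46 SE, adjusted p = 0.00253). The converting enzyme Ece1 was higher by 1.98 ± 0.43 (adjusted p = 0.0204), and its relative Ece2 was at 0.11 ± 0.28 (adjusted p = 0.862).

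On the anticoagulant surface, 4 of 11 genes beside Thbd were higher and 0 lower. These were Anxa5 (log2 fold change of 1.44 ± 0.14 SE, adjusted p = 0.000519), which covers exposed phospholipid, Vwf (2.45 ± 0.39, adjusted p = 0.00497), which tethers platelets and is thus no anticoagulant, the thrombin receptor F2r (1.495 ± 0.30, adjusted p = 0.0152), and Tfpi, the inhibitor of tissue factor.

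Beside Cav1, 5 of 6 tested genes of caveolae were higher in endothelium and 0 lower. Cav2, the partner of Cav1 in the coat, had 92.3 ± 8.29 RPKM in endothelium and 11.47 ± 13.6 in clusters (SD, n = 4 each; log2 fold change 3.72 ± 0.43 SE, adjusted p = 0.00103). The cavins Sdpr (1.83 ± 0.25, adjusted p = 0.00271) and Prkcdbp (2.29 ± 0.35, adjusted p = 0.00392) were higher too, together with Ptrf and the neck protein Ehd2.

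Among the partners of paxillin, 6 of 17 were higher and 1 was lower. Ptk2, the focal adhesion kinase, was higher by 1.94 ± 0.35 (log2, SE, adjusted p = 0.00884) and Parvb by 2.58 ± 0.47 (adjusted p = 0.00946). Lpxn, the paxillin relative of blood cells, had 2, 0, 0 and 1 counts in the endothelium libraries and 116–638 counts in the clusters (adjusted p = 0.00285).

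Of 29 other genes regulated by flow, 17 were higher in endothelium and 2 lower. The arterial ligand Efnb2 (log2 fold change of 2.69 ± 0.29 SE, adjusted p = 0.000778), the BMP target Id1 (2.401 ± 0.32, adjusted p = 0.00219) and the gap junction protein Gja4 (3.43 ± 0.50, adjusted p = 0.00338) led the list. The cyclooxygenase Ptgs1 and the adhesion molecule Selp, both made in blood platelets as well as in endothelium, were lower.

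**Figure D5:**
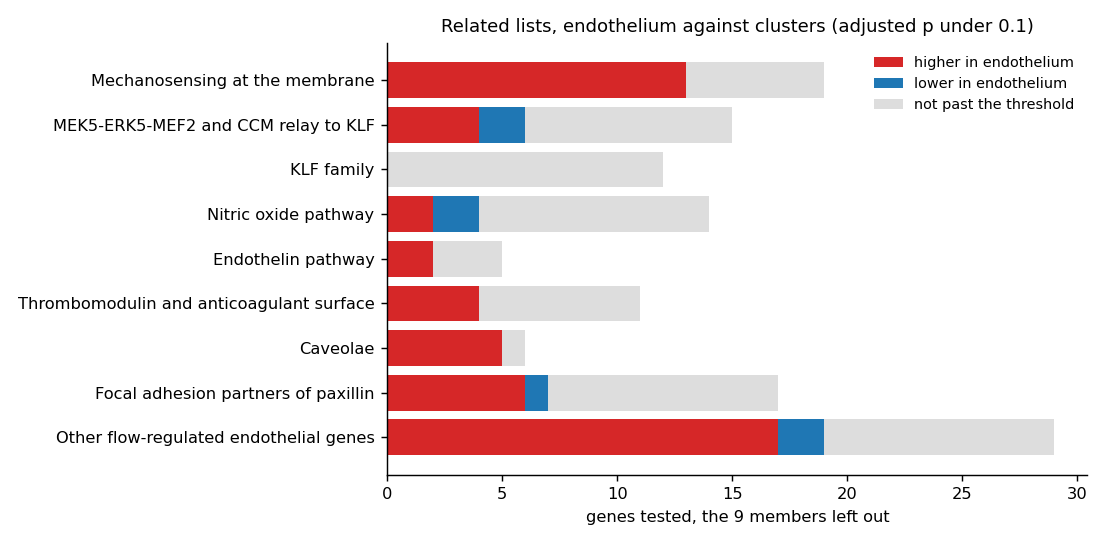
Bars count the tested genes of each related list, the 9 genes left out, as higher in endothelium (red), lower (blue) or not past an adjusted p of 0.1 (grey), over both genotypes. Membrane sensors (13 of 19) and caveolae (5 of 6) have the larger shares called higher, and the KLF family has 0 called. Genes of both directions are held by the relay to KLF genes, the nitric oxide pathway, the partners of paxillin and the other flow-regulated genes.

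Because Klf2, Klf4, Klf6 and Edn1 can also be induced while cells are taken apart, immediate early genes were counted in the same libraries. Their sum over 26 genes was 1514–2114 CPM in endothelium and 883.1–1632 CPM in clusters, ranges that overlapped. Of 25 tested, 5 were higher in endothelium over both genotypes and 0 lower, against 8.48% of all genes called higher, with Dusp1 (log2 fold change of 1.39 ± 0.24 SE, adjusted p = 0.00758), Btg2 (0.98 ± 0.22, adjusted p = 0.0248) and Rhob (1.67 ± 0.43, adjusted p = 0.0386) having the smallest p-values. The count was 2 without Sl/Sl endothelium replicate 1 and 3 without Sl/Sl clusters replicate 2. The highest sum, 2114 CPM, was in Sl/Sl endothelium replicate 1, the library with the highest RPKM of Klf2, Klf4, Klf6, Nos3 and Thbd, whereas Edn1 was highest in wild type endothelium replicate 1. Wild type clusters replicate 2 had the highest sum among clusters (1632 CPM) and the lowest Klf2 of all libraries (11.3 RPKM). Its Klf6 was the highest among clusters (41.6 RPKM). The part of cell handling in those values was not tested.

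Between the genotypes, 0 of the 128 related genes were called by edgeR in endothelium, in clusters or in the interaction, with 6, 19 and 14 at an unadjusted p under 0.05, against 4.17%, 4.22% and 5.29% of all genes. Since edgeR called no gene in these comparisons, the 0 of 128 does not show a lack of change. The median log2 fold change of the 128 in clusters was 0.54, against 0.03 over all genes. The endothelial markers moved the same way in these libraries, at 2831 and 770.4 CPM in Sl/Sl and 1234 and 438.7 CPM in wild type. Both sets hold Cdh5, Pecam1 and Kdr, so they are not separate readouts. The part of the markers in the shift was not tested. The smallest p-values in clusters belonged to Cav2 (140 and 81 counts against 1261 and 389 in Sl/Sl; log2 fold change 2.83 ± 0.58 SE, adjusted p = 0.398), to Tgfb1i1, a relative of paxillin (2.77 ± 0.65, adjusted p = 0.493), and to Anxa5 (0.82 ± 0.20, adjusted p = 0.534). Cav2 and Tgfb1i1 had their highest cluster RPKM in Sl/Sl replicate 1, as Cav1 did. Anxa5 had its highest in Sl/Sl replicate 2 (357.9 RPKM, against 259.4 RPKM in replicate 1). Mesenchymal and smooth muscle markers summed to 5271 CPM in that replicate 2, and their part was not tested. In endothelium the smallest p-values belonged to Gucy1b3, to Ptgs1 (1.87 ± 0.49) and to Klf16 (3.00 ± 1.14), each with an adjusted p of 1. Gucy1b3, a subunit of the nitric oxide receptor, had 147 and 69 counts in wild type against 1 and 1 in Sl/Sl.

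The genes with the profile most like each of the genes, Nos3 left out, over the 8 libraries were found by Pearson correlation of log2 CPM among 7371 genes. These values are descriptions, since all points share the split into 2 cell types. They were Dab2ip (0.985) and Itga6 (0.982) for Klf2, Pik3c2a (0.972) and Slc44a2 (0.972) for Klf4, and Sugt1 (0.988) and Mfge8 (0.981) for Thbd. For Edn1 they were Rgs3 (0.994) and Dock9 (0.986), and for Cav1 the arterial genes Gja5 (0.995) and Notch4 (0.995). Klf6 was most like Zfp932 (0.952) and Csrnp2 (0.945), Piezo1 most like Mapk3 (0.972) and Chtf8 (0.968), and Pxn most like Snrpf (0.889) and Zbtb18 (0.886). Among the 9 themselves, Nos3 and Edn1 were the most alike (0.977), Klf2 and Edn1 had 0.961 and Klf2 and Klf4 had 0.941, whereas Klf6 had at most 0.435 and Pxn at most 0.363 with any other.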

How the data were processed

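Per the labels and the methods of the study, the authors aligned Smart-seq2 read pairs to mm9 with STAR 2.4.2a, counted reads on exons with featureCounts of Subread 1.4.5 and deposited raw counts per gene for 8 libraries, without normalization. The gene annotation and strand setting are not given in the sources used here. After scaling by TMM and filtering with filterByExpr on the 4 groups, 1 model over the 8 libraries was tested with the quasi-likelihood test of edgeR 4.0.16 (R 4.3.3, limma 3.58.1), with Benjamini-Hochberg adjustment over 13908 genes and the 0.1 threshold of the study. The biological coefficient of variation was 0.817, with 4 residual and 5.24 prior degrees of freedom. The SE is the log2 fold change over the square root of F. RPKM (reads per kilobase of exon) used plain totals of counts and the exon lengths of the table, and log2 CPM used a prior count of 2. A count of 0 would allow up to 3 if counts were independent. Smart-seq2 has no molecular identifiers, so counts are not independent molecules and this bound does not strictly hold. The design calls the 2 libraries of a group biological replicates. The p-values rest on the spread between replicates, shared over the 4 groups and drawn toward that of other genes. Spearman correlations between replicates, across genes, were 0.88–0.90. Scripts were tested on simulated data. The 9 genes, the lists and the tests were chosen with earlier results of these data known. The rule named all 9 genes, the 3 genes of each list with the smallest p between the cell types, the 3 of all lists in each genotype comparison, and for each gene the 2 most alike with a mean log2 CPM of at least 4. The genes most like Nos3 are not reported here. Other genes of the lists were named after their values were seen. Alternatives were DESeq2 1.42.0, RLE size factors, no filter, at least 10 counts in every sample, an adjusted p of 0.05, a replicate block, only the 4 samples compared, TMM-scaled RPKM and leaving out libraries.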

Additional observations from a re-analysis of the deposited data

How the results depend on the processing

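The number of the 9 genes called higher in endothelium over both genotypes, 6, was 5 to 7 under every alternative run. Within wild type, where 3 were called, 5 were called without the filter, with the replicate block, with DESeq2 and without both cluster libraries numbered 1. Within Sl/Sl, where 3 were called, 6 were called without the filter, 5 with DESeq2, 5 without both cluster libraries numbered 1, 1 from only the 4 samples compared and 0 at an adjusted p of 0.05, and 0 to 4 with 1 library left out. In the genotype comparison of clusters 1 gene, Cav1, was called without the filter and without both cluster libraries numbered 1, and 0 to 1 with 1 library left out. The same held for the interaction. The replicate block changed the calls of Klf2 and Nos3 in wild type and of Thbd (lost) and Cav1 (gained) in Sl/Sl. The labels do not say that a number marks a pair, and deviations of same-numbered libraries correlated between −0.111 and 0.157. The causes of these changes were not tested.

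The log2 values that crossed 0 passed the threshold neither before nor after. Klf6 in wild type was −0.0049 with RLE size factors, −0.037 with at least 10 counts in every sample (where Cav1 and Piezo1 dropped out), −0.0043 with DESeq2 and −0.13 without both cluster libraries numbered 1, and Pxn in Sl/Sl was −0.0055 with at least 10 counts. Without both cluster libraries numbered 1, the genotype difference in clusters was 0.13 for Klf2, −1.17 for Nos3 and −0.046 for Thbd. With 1 library left out, Klf6 ran from −0.20 to 0.71 over both genotypes, from −0.13 to 0.16 in wild type and from −0.40 to 1.38 in Sl/Sl, and Pxn from −0.10 to 0.33, from −0.25 to 0.59 and from −0.25 to 0.37. The genotype difference in endothelium ran from −0.047 to 0.73 for Klf2, −0.17 to 1.03 for Klf4, −0.87 to 0.90 for Klf6, −0.027 to 0.68 for Nos3, −0.066 to 0.36 for Edn1 and −0.69 to 0.082 for Thbd, and in clusters from −1.23 to 0.63 for Klf2, −0.79 to 0.40 for Klf4, −1.87 to 0.33 for Edn1 and −1.80 to 1.41 for Nos3.

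Counts over all genes moved more. Over both genotypes 2310 genes were called, 1488 at an adjusted p of 0.05 and 3614 with DESeq2. Within wild type 1146 were called, 1990 without the filter and 2613 with DESeq2, and within Sl/Sl 393, 1266 and 1631. Between the genotypes 0 were called, and without the filter and with DESeq2 65 and 178 in endothelium, 253 and 175 in clusters and 179 and 175 in the interaction. With 1 library left out, the counts were 592 to 1329 within wild type, 182 to 633 within Sl/Sl, 0 to 1 for the genotypes in endothelium, 6 to 76 in clusters and 0 to 27 in the interaction. The lowest were without wild type clusters replicate 2 in wild type and without Sl/Sl clusters replicate 2 in Sl/Sl, and the highest in clusters was without wild type clusters replicate 1.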
